A study of Mus musculus with 4 samples.

Results

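Cytosolic ribosomal protein genes were followed across 4 conditions of mouse embryonic stem cells. They were taken as all probe sets annotated with a single gene symbol of the form Rpl or Rps followed by a digit, or with Rplp0, Rplp1, Rplp2 or Rpsa. The Rps6k kinases, Rps27l, Rps19bp1 and pseudogene symbols were left out. This gave 131 probe sets of 70 genes, among 28898 probe sets and 17097 genes with a single symbol. By role the 70 genes comprised 38 proteins of the large subunit, 24 of the small subunit, the 3 stalk proteins Rplp0, Rplp1 and Rplp2, and 5 variant genes, Rpl39l, Rpl22l1, Rpl7l1, Rpl36al and Rpl3l. The choice used symbols and no measured value, but it was made with earlier results of these arrays known.

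Total RNA came from J1 embryonic stem cells, an established pluripotent mouse line, grown without feeder cells in medium with fetal calf serum and LIF. Per the labels, all cells belonged to the doxycycline-inducible iP14 line, and 2 factors were crossed: overexpression of PRDM14, and combined knockdown of Tet1 and Tet2 (shTet1/Tet2) against a scramble control. PRDM14 is a transcriptional regulator found in pluripotent cells and germ cell precursors, and TET1 and TET2 are dioxygenases that oxidise 5-methylcytosine. Scramble (called wild type in another label), Scramble + PRDM14, Tet1/Tet2 KD, and Tet1/Tet2 KD + PRDM14 were each measured on 1 Affymetrix array, so no difference has a replicate check and none carries a p-value of its own. The labels do not tie doxycycline to single arrays, nor say whether a line was 1 clone, or whether cultures were pooled.

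Ribosomal proteins assemble with ribosomal RNA in the nucleolus into the small subunit, which reads the mRNA, and the large subunit, which joins amino acids. Their mRNAs are among the most abundant of growing cells, and many begin with a C and a run of pyrimidines, the terminal oligopyrimidine tract through which mTOR signalling controls their translation. A few ribosomal proteins have variant copies with narrower expression. Rpl39l is such a copy of Rpl39, whose product lines the exit tunnel of the large subunit, and it is known for its expression in male germ cells.

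Promoter sequences are shown for Rpl39l, the member with the widest range over the arrays, and for its parent Rpl39. They come from RefSeq on GRCm38.p6, in which 56 of the 70 genes had 1 or more start sites, 66 in all. No genome build is named for the arrays. The 250 bases before the RefSeq start of Rpl39l lie at chr16:10169978-10170227 on the + strand, and those of Rpl39 at chrX:37085223-37085472 on the - strand. CG dinucleotides, the sites of DNA methylation, are in capitals.
Rpl39l: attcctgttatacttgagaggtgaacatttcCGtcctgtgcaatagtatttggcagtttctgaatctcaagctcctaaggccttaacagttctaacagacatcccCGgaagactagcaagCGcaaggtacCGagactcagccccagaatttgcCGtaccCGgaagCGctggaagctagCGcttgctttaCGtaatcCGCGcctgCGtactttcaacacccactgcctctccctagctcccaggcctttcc
Rpl39: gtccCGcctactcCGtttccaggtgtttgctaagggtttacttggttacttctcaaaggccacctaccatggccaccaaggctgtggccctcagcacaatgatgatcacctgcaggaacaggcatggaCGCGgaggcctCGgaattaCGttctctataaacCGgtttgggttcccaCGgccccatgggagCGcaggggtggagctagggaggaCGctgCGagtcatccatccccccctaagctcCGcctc
Both stretches held 12 CG dinucleotides. Over the 300 bases from 250 before to 50 after the start, the ratio of observed to expected CG was 0.836 for Rpl39l and 0.683 for Rpl39. The median was 0.874 over the 66 windows of ribosomal protein genes and 0.384 over all 32851 windows of the table, and 82.1% of all windows had a lower ratio than Rpl39l. Methylation was not measured on these arrays.

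The start regions are shown for their runs of pyrimidines. The 25 bases from 10 before to 15 after the RefSeq start are given for the variant genes Rpl39l and Rpl22l1 and the parent Rpl39, with the longest run of C and T in capitals.
Rpl39l: aggCCTTTCCggatttccggtggtc
Rpl39: gctccgcctctagcgaCTTCTTCTa
Rpl22l1: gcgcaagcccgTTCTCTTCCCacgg
The longest runs were 7 bases in Rpl39l, 8 in Rpl39 and 10 in Rpl22l1. That of Rpl39l lay wholly before the RefSeq start, and those of the others after it. None of these 3 windows had a C at the RefSeq start followed by 4 further pyrimidines. A run of at least 8 pyrimidines in this window, read on the strand that matches the mRNA, was found in 30.3% of the 66 ribosomal protein windows and 9.49% of all windows. A C with 4 further pyrimidines from the RefSeq start was found in 16.7% and 2.51%. The heptamer CCGGAAG, the core of an ETS factor site, searched on both strands of the 300 bases, was in 37.9% of ribosomal protein windows and 8.86% of all windows. It occurred at 2 places before the start of Rpl39l, where its CG is among those in capitals. The 300 bases of Rpl39 held it at 1 place, which is not in the 250 bases printed. The hexamer CACGTG, which reads the same on both strands, was in 12.1% and 7.15%. A match describes these letters and is not a measured binding site.

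Rpl39l was lower with PRDM14 and lower with the knockdown, and the sizes were similar in both backgrounds. Its log2 signal was 9.33 on the scramble array, 8.60 with PRDM14, 8.11 in the knockdown and 7.42 in the knockdown with PRDM14. The scramble array was thus the highest and the knockdown array labelled with PRDM14 the lowest, 1.91 apart. The knockdown differences were −1.22 without PRDM14 (2.33-fold lower) and −1.18 with PRDM14 (2.26-fold lower). The PRDM14 differences were −0.73 in scramble cells (1.66-fold lower) and −0.69 in knockdown cells (1.61-fold lower). These PRDM14 differences lay 0.04 apart.

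A call required a 2-fold gap between arrays, of which 1 or both had to pass a filter on low signals of 5.40, the midpoint of the signals of all probe sets with a symbol. By this rule Rpl39l was called lower in both knockdown comparisons and in neither PRDM14 comparison. Of all genes, 0.444% were called lower in the knockdown without PRDM14 and 0.475% with it. From the lowest value, Rpl39l was number 23 of 10351 genes in the former comparison and number 31 of 10322 in the latter. In the PRDM14 comparisons it was number 239 of 10366 in scramble cells and number 82 of 10311 in knockdown cells. The knockdown comparison with PRDM14 and the PRDM14 comparison in knockdown cells do not use the scramble array.

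As a yardstick of technical spread, the differences of several probe sets of 1 gene had a pooled SD over all genes of 0.22 and 0.15 for the PRDM14 comparisons in scramble and knockdown cells. For the knockdown comparisons without and with PRDM14 it was 0.21 and 0.16, and for the dependence of the PRDM14 difference on the knockdown 0.25. This covers neither cultures nor arrays. Rpl39l itself was measured by a single probe set, named as specific to 1 transcript, so its own values have no second probe set to be set against.

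In an additive limma fit over all 4 arrays, in which the interaction supplies 1 residual degree of freedom, the average knockdown difference of Rpl39l was −1.20 ± 0.11 (SE, 4 arrays). Its limma p was 0.00128 unadjusted and 0.802 after Benjamini-Hochberg adjustment over 10519 genes. The average PRDM14 difference was −0.71 ± 0.11 (SE), with a limma p of 0.00656 unadjusted and 0.782 adjusted. No gene of the 10519 passed an adjusted p of 0.05 for either factor (0% called), while 604 (5.74%) and 638 (6.07%) had an unadjusted limma p below 0.05 for the knockdown and PRDM14. Of the 69 ribosomal protein genes tested, 1 had an unadjusted limma p below 0.05 for the knockdown, Rpl39l. For PRDM14 there were 3, Rpl39l, Rpl22l1 and Rpl41. The knockdown labels were matched by Tet2, which differed by −0.96 and −1.18 without and with PRDM14 on its brighter probe set and by −0.56 and −0.58 on the other, and Tet1 was not analysed here. The Prdm14 probe set read 4.35 to 4.83 on the 4 arrays, under the filter, so the PRDM14 labels could not be tested with it.

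**Figure D1:**
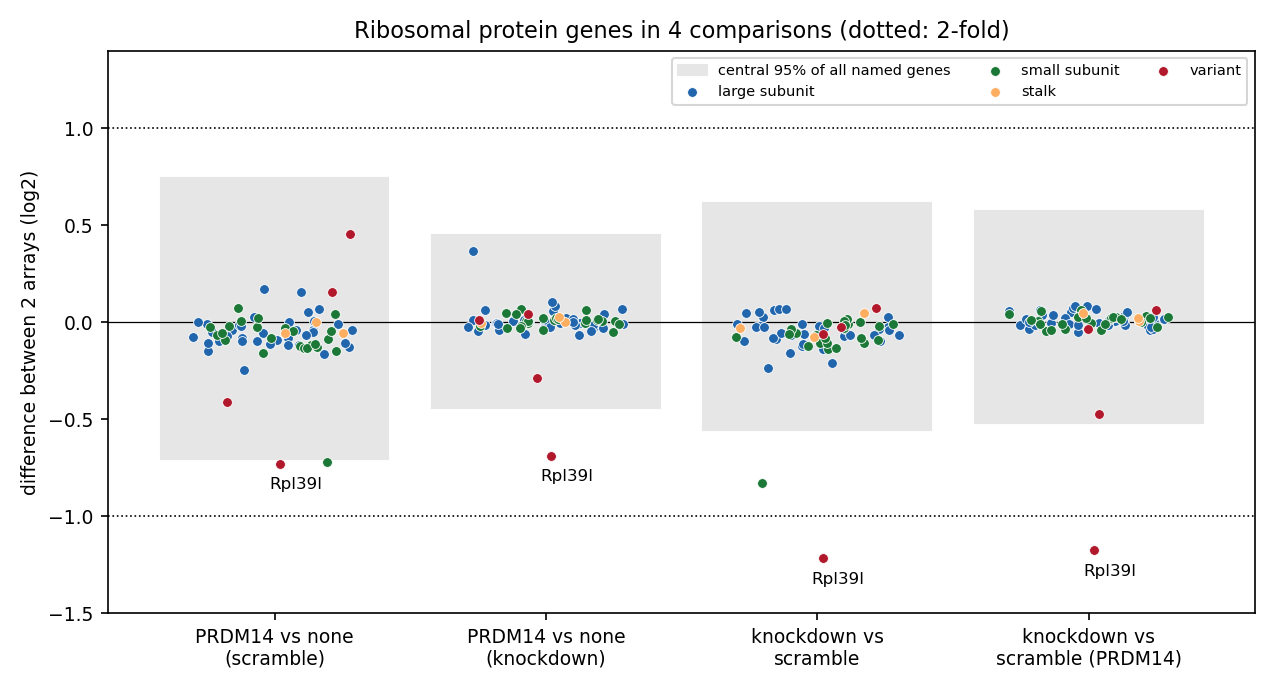
Log2 differences of 69 ribosomal protein genes (points, coloured by role) in 4 comparisons between single arrays, with the central 95% of all named genes above the filter in grey and 2-fold marked by dotted lines. Most points lie within 0.1 of 0, while Rpl39l lies at −0.73, −0.69, −1.22 and −1.18 from left to right.

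Among 10519 genes above the filter on any array, Rpl39l was the only one at least 1.5-fold lower in all 4 comparisons (0.00951%), and 2 genes were at least 1.5-fold higher in all 4 (0.019%), Neat1 and Rnf128. That rule was chosen after the values were seen, and the 4 comparisons share arrays.

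The parent Rpl39 differed little between arrays. Its brightest probe set read 12.89, 12.92, 12.83 and 12.89 in the order scramble, PRDM14 alone, knockdown alone, and both, which holds for all lists of 4 signals here. A dimmer Rpl39 probe set read 6.28, 6.29, 6.19 and 6.29. The differences were at most 0.06 in size on the former and 0.10 on the latter, under the yardstick in every comparison.

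Rpl22l1, a variant of the RNA-binding protein Rpl22, was lower with PRDM14 and near 0 with the knockdown. Its signals were 11.68, 11.26, 11.61 and 11.33, so both arrays labelled with PRDM14 lay under both arrays without it. The PRDM14 differences were −0.41 in scramble and −0.29 in knockdown cells, under 2-fold, and the knockdown differences were −0.06 and 0.06. The average PRDM14 difference was −0.35 ± 0.07 (SE, 4 arrays), with a limma p of 0.0135 unadjusted and 0.782 adjusted. Rpl22 read 11.65, 11.55, 11.58 and 11.62, with PRDM14 differences of −0.10 and 0.05, and 0.13 and 0.22 on a second probe set.

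Rpl7l1, a nucleolar relative of Rpl7 that acts in processing of ribosomal RNA, stood out on 1 array. The signals of its brightest probe set were 9.43, 9.88, 9.40 and 9.41, and the scramble array labelled with PRDM14 was the highest. Its PRDM14 difference in scramble cells was 0.46, and 0.37 and 0.41 on its other 2 probe sets. In knockdown cells the 3 probe sets gave 0.01, 0.13 and 0.11. The knockdown difference with PRDM14 was −0.47 on the brightest and −0.20 and −0.38 on the others. Rpl7 read 12.62, 12.55, 12.61 and 12.61, with no difference over 0.07 in size in the 4 comparisons.

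The other variant genes differed little. Rpl36al, a near-identical copy of Rpl36a, read 11.48, 11.64, 11.56 and 11.60 on a probe set whose _s_at name marks probes shared by transcripts of several genes, so its signal may include related transcripts. Rpl36a read 12.11, 12.18, 12.09 and 12.17. Rpl3l, a variant of striated muscle, read 4.54, 4.45, 4.57 and 4.42 and was the 1 gene of the 70 under the filter on every array. Its parent Rpl3 read 12.80, 12.78, 12.86 and 12.79.

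**Figure D2:**
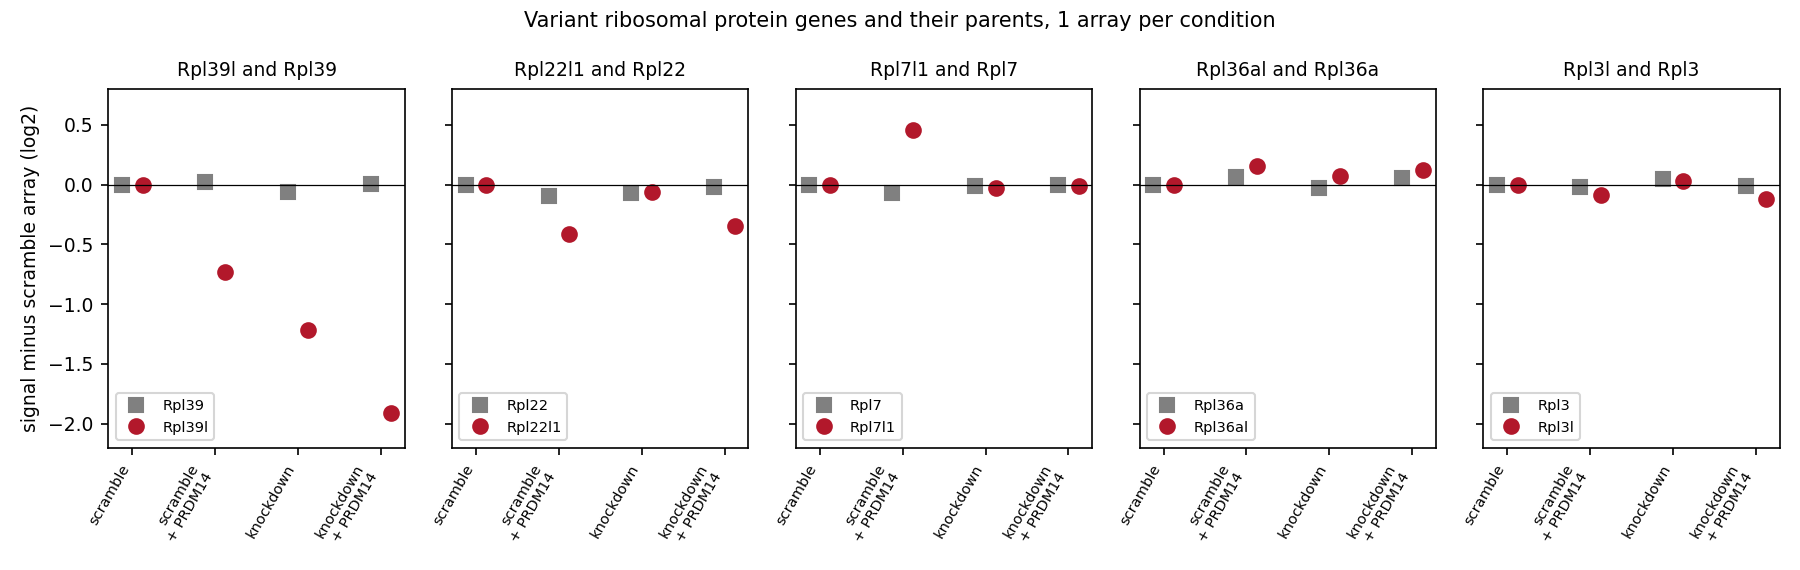
Log2 signal minus the scramble array for 5 variant genes (circles) and their parents (squares) on the 4 arrays, 1 array per condition. Rpl39l lies 1.91 below its scramble value on the knockdown array labelled with PRDM14, Rpl22l1 lies at −0.41 and below 0 again on the other array with PRDM14, Rpl7l1 stands at 0.46 on 1 array, and the parents stay within 0.1 of 0.

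The 65 genes of the core ribosome, that is all members but the 5 variants, were nearly level over the 4 conditions on their brightest probe sets. None was called in any of the 4 comparisons, while 2.09% and 0.63% of all genes were called in the PRDM14 comparisons in scramble and knockdown cells. For the knockdown comparisons without and with PRDM14 these shares were 1.06% and 1.1%, and for the dependence of the PRDM14 difference on the knockdown 2.27%. At such shares few calls would fall in a list of 65 genes. The highest and lowest of the 4 arrays were a median of 0.09 apart in the core genes, against 0.26 over the 10519 genes above the filter. In 63 of the 65 they lay within 0.32 on the log2 scale, with Rps15a and Rpl14 outside. On these probe sets 61 of the 65 had a mean signal of at least 12. The 44 other named probe sets of that brightness had a median range of 0.18. Dimmer probe sets of some core genes differed more, as given below.

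Lower thresholds added few genes. Past 1.5-fold were 2 of the 69 genes for PRDM14 in scramble cells, where 8.19% of all genes were, and 1 for PRDM14 in knockdown cells, against 2.81%. There were 2 for the knockdown without PRDM14, against 5.09%, and 1 with PRDM14, against 4.34%. For the dependence of the PRDM14 difference on the knockdown there was 1, against 9.1%. Past 0.32 on the log2 scale were 4, 2, 2, 2 and 2 in the same order, against 22.2%, 9.55%, 17.7%, 13.6% and 25.4% of all genes. Rpl39l and Rps15a made up the 2 past 1.5-fold for PRDM14 in scramble cells and the 2 for the knockdown without PRDM14. The only probe set of Rps15a read close to the filter, as given below.

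Small as they were, the core differences that start from the scramble array lay mostly on 1 side. The median was −0.06 for PRDM14 in scramble cells, with 52 of 65 genes below 0, and −0.06 for the knockdown without PRDM14, with 54 of 65 below 0. Of all genes, 49.5% and 48.3% were below 0 in these comparisons, with medians of 0.002 and 0.008. The comparisons without that array had medians of −0.0004 (33 of 65 below 0) for PRDM14 in knockdown cells and 0.01 (25 of 65 below 0) for the knockdown with PRDM14. There, 50.4% and 49.1% of all genes were below 0. The dependence of the PRDM14 difference on the knockdown was below 0 in 10 of 65, against 50.9% of all genes. The former comparisons share the scramble array, and 45 of the 65 core genes read highest on it, against 29.7% of all genes. Whether shifts of this size exceed the spread between cultures was not tested, with 1 array per condition. Over all 69 genes the sign of the median for PRDM14 in knockdown cells depended on the choice of probe sets.

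Array controls also differed on the scramble array. The 5′ 18S rRNA control read 11.79 there and 10.95 to 11.37 elsewhere. The 3′ Actb control read 12.26 there and 12.50 to 12.52 elsewhere, opposite in direction to the core genes, and the 3′ Gapdh control 12.23 against 12.29 to 12.46. Their part in the small core differences was not tested.

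**Figure D3:**
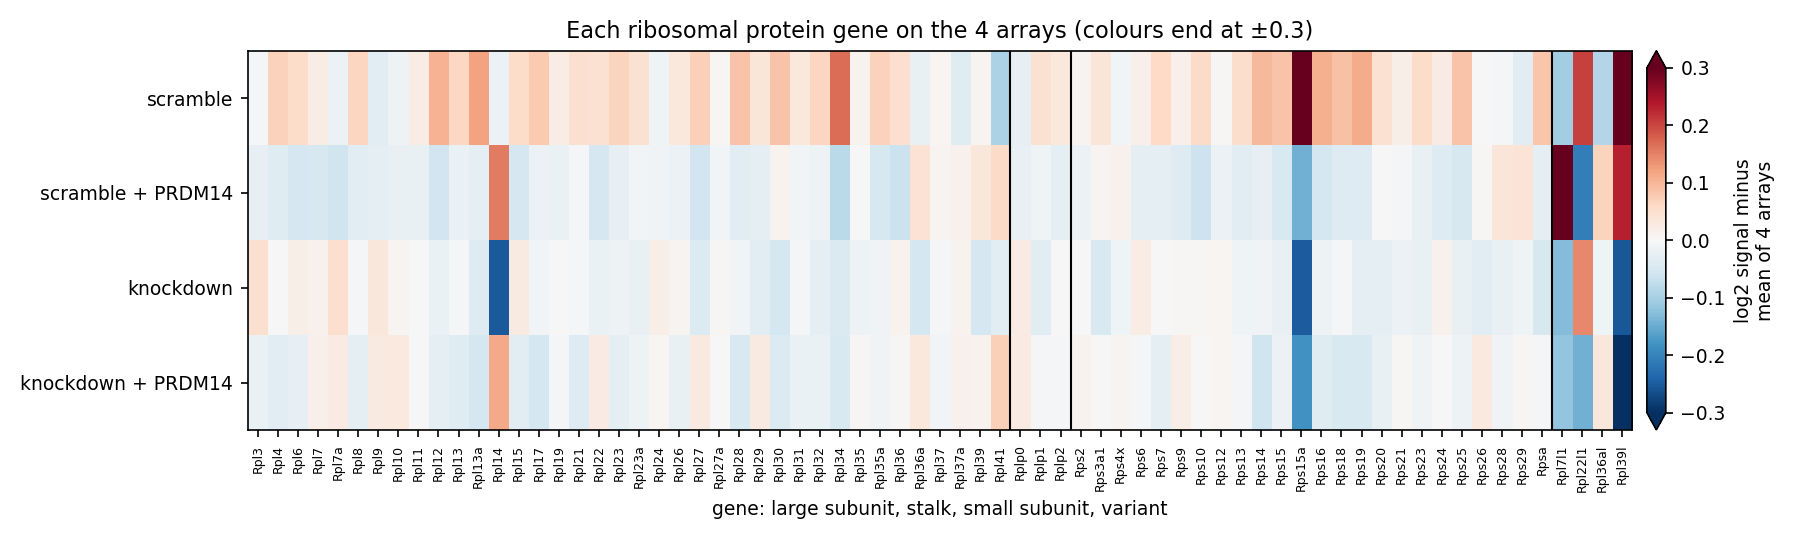
Log2 signal of each of 69 genes minus its mean over the 4 arrays (rows), with genes in columns by role and colours ending at ±0.3. The scramble row is faintly red for most core genes, where 45 of 65 read highest, and strong colours stand at Rps15a, Rpl14 and the variants.

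Among the large subunit proteins, all 38 passed the filter. Their differences ran from −0.25 to 0.17 and from −0.07 to 0.37 for PRDM14 in scramble and knockdown cells, and from −0.23 to 0.07 and −0.05 to 0.09 for the knockdown without and with PRDM14. Rpl34 read 12.31, 12.06, 12.10 and 12.09, the scramble array alone standing higher. Its differences were −0.25 with PRDM14 in scramble cells and −0.21 with the knockdown, and −0.002 and 0.04 where the scramble array is not used. Rpl12 was at −0.16 for PRDM14 in scramble cells and Rpl13a at −0.16 for the knockdown without PRDM14.

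Rpl14, measured by 1 probe set, read 9.09, 9.27, 8.86 and 9.22. Both arrays labelled with PRDM14 lay above both arrays without it, and the differences were 0.17 in scramble and 0.37 in knockdown cells. The average PRDM14 difference was 0.27 ± 0.13 (SE, 4 arrays), with a limma adjusted p of 0.782. Rpl41, the smallest ribosomal protein, read 12.66, 12.82, 12.72 and 12.83, also higher on both arrays with PRDM14, by 0.15 and 0.11. Its average difference of 0.13 ± 0.04 (SE, 4 arrays) had a limma p of 0.0385 unadjusted and 0.782 adjusted. Rpl11, which with Rpl5 and the 5S rRNA binds the p53 regulator MDM2, read 12.18, 12.13, 12.15 and 12.15.

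The stalk recruits elongation factors to the large subunit. Rplp0, which anchors it, read 12.81, 12.81, 12.86 and 12.86. Rplp1 read 12.81, 12.75, 12.73 and 12.76, and Rplp2 read 12.87, 12.81, 12.84 and 12.83. No stalk gene differed by more than 0.08 in the 4 comparisons.

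Among the 24 small subunit proteins, Rps15a stood apart. Its only probe set read 6.18, 5.46, 5.35 and 5.42, close to the filter, with the scramble array higher than the rest. Its differences were −0.72 for PRDM14 in scramble cells and −0.83 for the knockdown without PRDM14, and 0.07 and −0.04 where that array is not used. The other 23 small subunit genes differed by at most 0.16 in size in the 4 comparisons. Rps16 had −0.16 for PRDM14 in scramble cells. Rps29, at 13.07 to 13.15 on the 4 arrays, had 0.07 there.

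**Figure D4:**
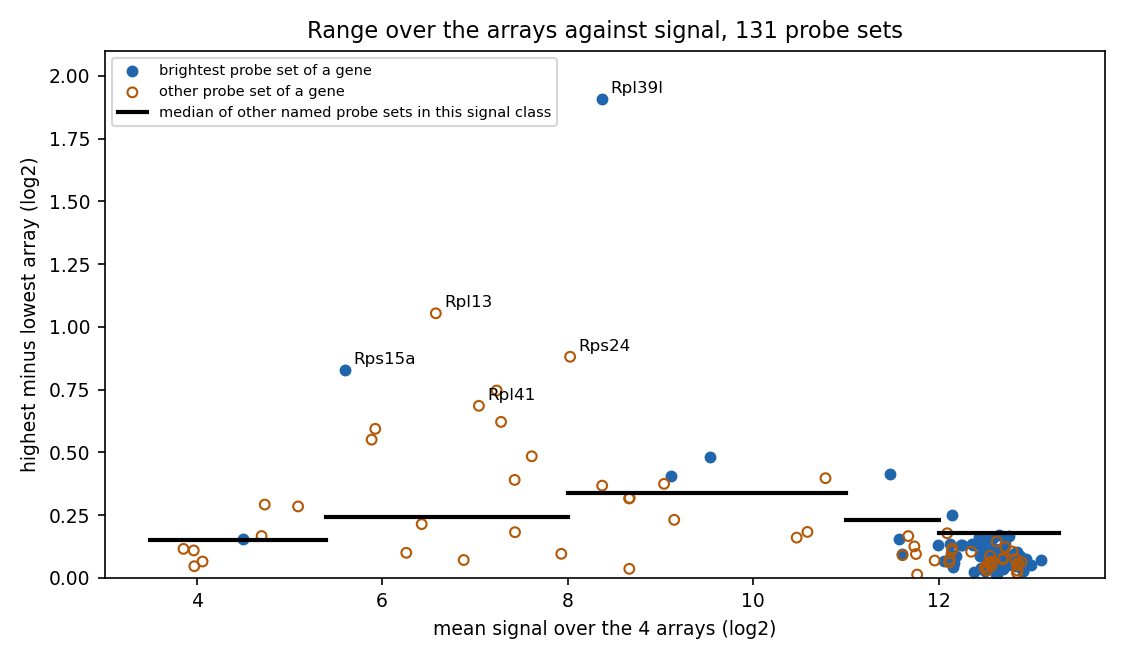
Difference between the highest and lowest array (log2) against mean signal (log2) for 131 ribosomal protein probe sets, filled for the brightest of a gene and open for the others, with black lines for the median of other named probe sets in 5 signal classes. Probe sets above 12 cluster near 0.07, while dimmer ones of Rpl13, Rps24 and Rpl41 reach 0.69 to 1.05 and Rpl39l reaches 1.91.

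These ranges differed between signal classes, without a steady trend from dim to bright. Of the 131 probe sets, 86 had a mean signal of at least 12, close to the highest values on the arrays of 13.1 to 13.2. The range over the arrays had a median of 0.07 in these 86 and 0.18 in the 44 other named probe sets of that brightness. Between the filter and 8 the medians were 0.52 in 14 ribosomal protein probe sets and 0.24 in 10800 others, and between 8 and 11 they were 0.37 in 13 and 0.34 in 3288. Between 11 and 12 they were 0.11 in 10 and 0.23 in 200, and under the filter 0.13 in 8 and 0.15 in 14435. Whether bright probe sets were near saturation, which would narrow differences between arrays, was not tested. In bulk RNA, fewer cells with a transcript and less transcript per cell cannot be told apart.

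Dim second probe sets of some core genes did not follow the bright ones. Of 33 genes with several probe sets, 30 had more than 1 above the filter. All probe sets of a gene had the same sign in 17 of these 30 for PRDM14 in scramble cells and 19 in knockdown cells. Over all genes it was 2112 of 3233 and 1911 of 3196. For the knockdown without and with PRDM14 it was 22 and 17 of the 30, against 1948 of 3216 and 2078 of 3209. Rpl13 had the widest gap. Its bright probe set read 12.89, 12.80, 12.82 and 12.79, and a dim _s_at probe set read 6.05, 7.10, 6.69 and 6.48. The PRDM14 differences in scramble cells were −0.08 and 1.05. The dim one was the only ribosomal protein probe set of 123 past 2-fold in that comparison, in which 2% of all probe sets were. In knockdown cells 0 of the member probe sets were past 2-fold for PRDM14, against 0.582% of all. For the knockdown without and with PRDM14 it was 1 each, that of Rpl39l, against 1.09% and 1.02%. For the dependence of the PRDM14 difference on the knockdown it was again the dim Rpl13 probe set, against 2.17%.

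Rps24 had 3 bright probe sets with PRDM14 differences of −0.03 to −0.07 in scramble cells, while a dimmer one that read 7.51, 8.39, 7.90 and 8.30 gave 0.88, and 0.40 in knockdown cells. Rpl41 had 2 bright probe sets at 0.15 and 0.09 and 2 dim ones at −0.38 and −0.33. A second Rpl15 probe set, at a mean signal of 10.78, gave −0.35 and −0.40 for the knockdown without and with PRDM14. The brightest Rpl15 probe set gave −0.03 and 0.02. Which transcript a dim probe set measures was not analysed here. Of the 131 probe sets, 44 had names in _a_at, which mark several transcripts of 1 gene, and 8 and 42 had names in _s_at and _x_at, which mark probes shared with other transcripts. Ribosomal protein genes have many processed pseudogenes, so those signals may combine several loci.

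Genes that make or drive ribosomes were read from lists chosen with earlier results known. Of 64 ribosome biogenesis genes 60 were above the filter in each comparison. For PRDM14 in scramble cells 1 of the 60 was called, near the 2.09% of all genes, with 35 above 0, 25 below 0 and a median of 0.04. It was Nop16, a nucleolar protein of large subunit assembly, at 7.61, 8.79, 8.59 and 8.68, a difference of 1.18. The scramble array was the low one, and the knockdown difference was 0.98 without PRDM14. Nop10, a subunit of pseudouridylation particles, had 0.85 and 0.58 in the same comparisons. Taf1d, of the RNA polymerase I initiation factor, lay the other way, at −0.63 and −0.70. Taf1b, of the same factor, read 6.66, 6.87, 6.81 and 6.19, low on the knockdown array with PRDM14.

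Translation factors with mRNAs of the terminal oligopyrimidine kind had no calls among 16 genes, where 0.63% to 2.09% of all genes were called, less than 1 call in a list of this length. Eef2, the translocation factor, was highest on the scramble array, at 11.59 against 10.96 to 11.09 elsewhere, and differed by −0.50 for PRDM14 in scramble cells and −0.62 for the knockdown. Eif3k differed by 0.32 and 0.39. Among 16 growth regulators, Myc, a factor that drives ribosome synthesis, was the 1 called for PRDM14 in scramble cells, against 2.09% of all genes. It was higher, at 6.72, 8.04, 7.52 and 7.83, a difference of 1.32. Ddit4, an inhibitor of mTORC1, was called lower for the knockdown without PRDM14, at 8.61, 7.81, 7.36 and 7.59, a difference of −1.25. Mycn differed by 0.30 and 0.65 with PRDM14 in scramble and knockdown cells. Myc and Ddit4 each had the scramble array at 1 extreme. The median of the core ribosomal protein genes was −0.06 both for PRDM14 in scramble cells and for the knockdown without PRDM14. A link between these regulators and the core genes was not tested. Fau, a small subunit protein whose symbol falls outside the rule, read 12.20, 12.06, 12.11 and 12.08.

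The 73 genes of mitochondrial ribosomal proteins, which build the separate ribosome of that organelle, had larger differences at the median than the cytosolic core. The median size of the difference for PRDM14 in scramble cells was 0.20 against 0.07. No gene of the 72 above the filter was called in the 4 comparisons, where 2.09%, 0.63%, 1.06% and 1.1% of all genes were, shares at which few calls would fall in a list of this length. Their medians were 0.07 and −0.01 for PRDM14 in scramble and knockdown cells, and 0.14 and 0.03 for the knockdown without and with PRDM14. Mrps12 and Mrpl36 had 0.97 and 0.90 for PRDM14 in scramble cells, and Mrps6 and Mrps21 had 0.85 and 0.78 for the knockdown without PRDM14. The difference between both families was not tested, and their probe sets differ in brightness.

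**Figure D5:**
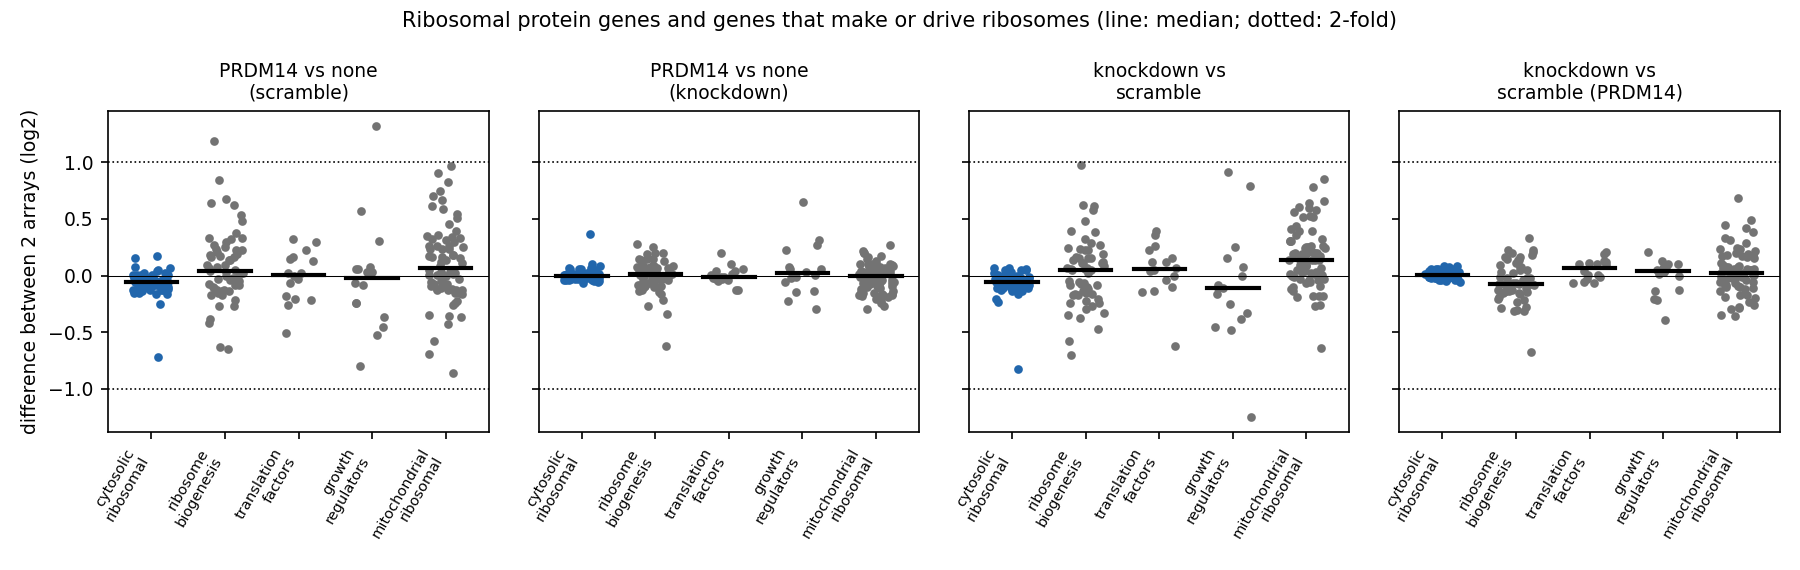
Log2 differences of the 65 core cytosolic ribosomal protein genes (blue) and of 4 other lists (grey) in the 4 comparisons, each point 1 gene above the filter on 1 or more arrays, with bars at the medians and dotted lines at 2-fold. The core genes have the smallest median size of difference of the 5 lists in each panel, and Myc (1.32) and Nop16 (1.18) lie past 2-fold in the first.

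The neighbours of Rpl39l on the chromosome did not share its values. In the RefSeq order, Grin2a and Atf7ip2 lie next to it, and 6 of the 8 protein-coding genes closest to it were on the arrays. Atf7ip2 read 7.35, 7.32, 7.39 and 7.39, and Emp2 6.42, 6.38, 6.36 and 6.50. Grin2a was under the filter, at 4.08 to 4.28. The neighbours' knockdown differences lay between −0.29 and 0.17, against −1.22 and −1.18 for Rpl39l. Other genes of a short list for male germ cells or retrocopies also had other values. All but Hnrnph2 read lower than Rpl39l on the scramble array, some near or under the filter, which left less room to fall. Utp14b read 6.76, 6.71, 6.71 and 6.75, Cetn1 5.93, 5.87, 5.88 and 5.94, and Pabpc2 5.70, 5.79, 5.73 and 5.67, while Pgk2 and Tktl1 were under the filter. Hnrnph2 was higher with PRDM14 in scramble cells, by 0.61.

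Markers matched the labelled cell type. Of 12 stem cell markers 11 were on the arrays, and all 11, Pou5f1, Sox2, Nanog and Zfp42 among them, were above the filter on all arrays. Their summed signal was 14.3 to 14.5 on the log2 scale, lowest on the knockdown array with PRDM14. For the knockdown with PRDM14, 9 of the 11 were below 0 with a median of −0.35, and Klf4 was at −1.21. For PRDM14 in knockdown cells 8 of 11 were below 0 with a median of −0.07, and Tcl1 was at −1.04. Of 9 fibroblast and feeder markers 1 reached the filter, and the summed signal was 7.69 to 7.75. Of 8 primitive endoderm markers 5 reached the filter on some array, with a summed signal of 8.14 to 8.45. Of the neuroectoderm markers 1 did, with a summed signal of 6.66 to 7.66, and of those of mesoderm and endoderm 1, with a summed signal of 7.59 to 7.72. Of the red cell markers 1 did, with a summed signal of 7.12 to 7.58, highest on the scramble array, and of the leukocyte markers 0. Each summed signal covers all markers of a list on the arrays, also those under the filter. Among trophectoderm markers, 4 of 7 reached the filter on some array, with a summed signal of 9.07 on the knockdown array with PRDM14 and 8.55 to 8.63 elsewhere. That array, also the lowest for Rpl39l, is the one where Krt18 read 7.74 against 6.40 to 6.59. The part of these markers in that value was not tested.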

How the data were processed

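Total RNA of 4 samples was measured on 4 Affymetrix arrays, 1 per condition, after labelling with a GeneChip 3′ IVT Express kit, per the labels' protocols. The authors deposited 1 log2 signal per probe set and array, and the 4 arrays have medians of 5.09 to 5.11. Base 2 was read from the span of the values. For the summary method and genome build, nothing is given in the sources used here. The submitters' processing notes list Affymetrix Expression Console. The number of arrays limits the precision.

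Groups followed the sample titles. A platform annotation gave a single symbol to 28898 probe sets, several to 551 and none to 15588, beside 104 controls, and 0 sample columns were left out. A gene was represented by its brightest probe set over the 4 arrays. All 131 member probe sets had their Entrez identifier in the RefSeq table. The filter was 5.40 and a call needed 2-fold. Differences between single arrays have no test. The additive fit used limma 3.58.1 under R 4.3.3 (lmFit, eBayes with trend, Benjamini-Hochberg at 5% over all genes). It was tried on simulated data with the same spread for all genes and no interaction, which these arrays need not share. Members and lists were chosen with earlier results of these data known. Named genes were Rpl39l, the variants with their parents, the stalk, called members, the core extremes of each comparison, the widest probe set disagreements and the leading genes of each list. The neighbours of Rpl39l were chosen by position, and the genes under the 4-comparison rule after their values were seen. Alternatives changed the probe set choice, filter, threshold, scaling and variance trend.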

Additional observations from a re-analysis of the deposited data

Results flagged for a closer look

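Of the ribosomal protein probe sets, 2 differed in opposite directions between backgrounds, each by more than 0.32 on the log2 scale. Neither was tested, since every arm is 1 array, and the share of all probe sets under this rule was not counted. Both are dim, in the signal class from the filter to 8, where ribosomal protein probe sets had a median range of 0.52. The dim probe set of Rpl13 differed by 0.64 for the knockdown without PRDM14 and by −0.62 with it, a gap of −1.26, while the bright Rpl13 probe set gave −0.07 and −0.02. A dim probe set of Rpl41 differed by −0.38 for PRDM14 in scramble cells and 0.51 in knockdown cells, a gap of 0.89, while the brightest gave 0.15 and 0.11.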

How the results depend on the processing

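The counts of called genes kept within 1.5 times of the reported ones under the other probe set choices, no filter, raised low values, array centring and quantile normalization, and depended on the fold threshold. At 1.5-fold, 2 genes were called for PRDM14 in scramble cells, 1 for PRDM14 in knockdown cells, 2 for the knockdown without PRDM14 and 1 for the dependence of the PRDM14 difference on the knockdown. At 0.32 on the log2 scale the numbers were 4, 2, 2 and 2, and 2 for the knockdown with PRDM14. Over the alternatives the median ran from −0.06 to −0.04 for PRDM14 in scramble cells, from −0.08 to −0.03 for the knockdown without PRDM14, from 0.0003 to 0.01 with PRDM14, and from 0.03 to 0.09 for the dependence. That for PRDM14 in knockdown cells changed sign, at −0.0004 as reported, and 0.01 with the mean of all probe sets of a gene or with only probe sets specific to 1 transcript. Rpl39l kept its 4 differences below 0, with a lowest of −1.26 and a highest of −0.69. The additive fit passed 0 members under each setting run, with 1 to 3 at an unadjusted limma p below 0.05. No paired analysis was possible because each condition has 1 array and the labels carry no replicate numbers. Leaving out an array could not be run, since each comparison needs both of its arrays.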

Other observations

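The rule that Rpl39l alone met, at least 1.5-fold lower in all 4 comparisons, was met by 8 genes at 0.32 on the log2 scale and by 0 at 2-fold, and by 1 after quantile normalization at 1.5-fold. These settings were chosen after the data were seen. The 8 were Rpl39l, the epoxide hydrolase gene Ephx2, the pluripotency factor gene Esrrb, the phosphofructokinase gene Pfkp, Nsmce1, Rhox13, Scfd1 and Znrd1as. Esrrb read 8.85, 8.34, 8.31 and 7.82 in the order scramble, PRDM14 alone, knockdown alone, and both. Pfkp read 9.19, 8.76, 8.17 and 7.43. Of the genes higher in all 4 comparisons, the long noncoding RNA Neat1 read 6.41, 7.18, 7.10 and 8.02, and the ubiquitin ligase gene Rnf128 read 5.08, 6.41, 6.89 and 7.54.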
